A study of Mus musculus with 8 samples.

Results

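The 8 genes described here belong to the unfolded protein response and to the feedback by which an olfactory neuron settles on its receptor. They are Eif2ak3, Atf4, Atf5, Ddit3, Ddit4, Trib3, Xbp1 and Hspa5, taken by symbol from a gene table of 54982 rows, and all 8 had a row. RNA was measured in the olfactory mucosa, the tissue of the nose in which olfactory sensory neurons sit. There were 4 libraries from mice labelled with a T element deletion (TE1 and TE2, candidate enhancers of the trace amine-associated receptor, or Taar, genes) and 4 from mice labelled control. In both groups the animals were labelled male, on a 129S6;C57BL/6J background and at postnatal day 30. The labels do not say whether the deletion was homozygous, whether controls were littermates, or whether each sample was a separate animal. P-values therefore measure the spread between these samples, which may be technical.

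The unfolded protein response is the cell's answer to a load of unfolded protein in the endoplasmic reticulum (ER). It has branches that start from the kinase PERK, the nuclease IRE1 and the factor ATF6. In mouse olfactory neurons, a newly made odorant receptor is known to engage PERK, which favours translation of Atf5. Atf5 then leads to adenylyl cyclase Adcy3 and to the shutdown of the demethylase Lsd1 (gene Kdm1a), after which receptor choice is stable. Phosphorylation, translation of Atf5 and splicing of Xbp1 are regulated steps of this pathway, and gene-level RNA shows none of them.

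Each library held 31655524 to 50748777 reads assigned to genes. Values are given as scaled reads, that is, reads after division by a size factor for each library. The deletion libraries held 11 to 83 reads of the 14 olfactory Taar genes together and the control libraries 2941 to 3594. Deletion replicate 3 went against its label of male: it had 15300 scaled reads of Xist, against 5.42 to 19.2 in the other deletion libraries and 4.86 to 86.9 in controls. Its Y-linked Ddx3y was at 5.69 scaled reads, against at least 2716 in each of the other 7 libraries. The fold change of each of the 8 genes is therefore also given without deletion replicate 3. That library also had the lowest sum of globose basal cell and precursor markers, 201 CPM (reads scaled to a fixed library total) against 302 to 317 CPM in the other deletion libraries and 277 to 307 CPM in controls. The mature olfactory neuron markers, which define the labelled tissue, were abundant: 7 of them summed to 10346 to 11373 CPM in deletion libraries and 9222 to 10952 CPM in controls.

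With a threshold of 0.05 on the adjusted p, 0 of the 8 genes were called (limma on log2(scaled reads + 1), Benjamini-Hochberg over 21974 tested genes). Their adjusted p ran from 0.869 to 0.997. Over all tested genes, 0.0728% were called, 0.0137% higher and 0.0592% lower in deletion libraries. The edgeR quasi-likelihood test and DESeq2 on the recovered reads also called 0 of the 8. On the unadjusted p, 1 of the 8 passed 0.05, Hspa5, where 3.50% of all tested genes passed, 1.58% higher and 1.92% lower in deletion libraries. Of the 8 genes, 6 had a log2 fold change above 0 and 2 below, with a median of 0.11. All tested genes had a median of 0.02, and 54.4% were above 0. The 7680 tested genes with a mean of at least 1000 scaled reads, the range in which all 8 lie, had a median of 0.06 and 77.2% above 0. A fold change on the log2(scaled reads + 1) scale is damped for genes at low levels, which bears little on these abundant genes.

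**Figure D1:**
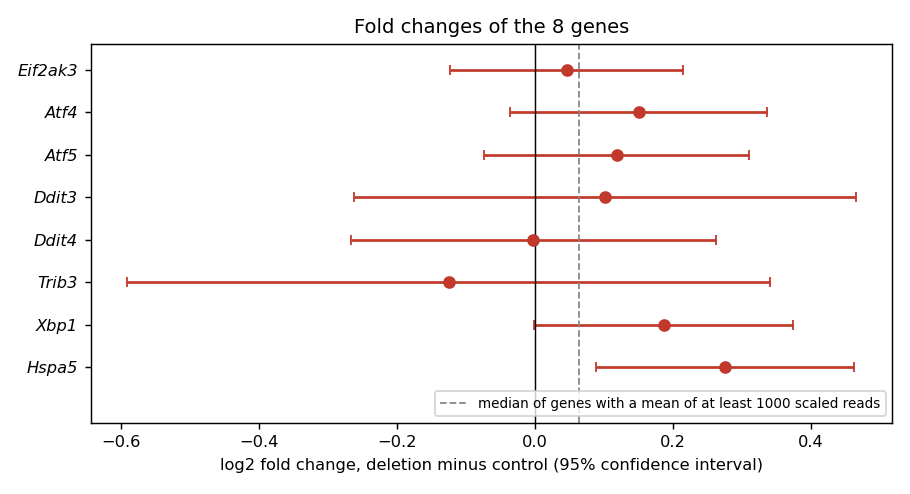
Log2 fold change of each gene, deletion minus control (x axis), with its 95% confidence interval from limma over 4 deletion and 4 control libraries. The interval of Hspa5, from 0.09 to 0.46, lies above 0, that of Xbp1 starts just below 0, and the other 6 span 0. The dashed line is the median of the 7680 tested genes with a mean of at least 1000 scaled reads, 0.06.

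Promoters of Hspa5 and Trib3 are shown because, of the 8 genes, only these held an exact match in the stretch searched. Hspa5 held the textbook element of ER stress chaperones and Trib3 that of the PERK branch. The other genes may hold such an element outside this stretch or in a variant form. The promoters are RefSeq's in the build GRCm38.p6, cut to the 250 bases before the start annotated there. For Hspa5 that start lies inside the gene span given below, which begins at 34771970 in another annotation. Its element therefore also lies inside that span. Capitals mark the matched element. In Hspa5 (chr2:34771840-34772089, plus strand) it is an ER stress response element, CCAAT followed after 9 bases by CCACG, which binds the factors of the ATF6 and XBP1 branches. In Trib3 (chr2:152344061-152344310, minus strand) it is a C/EBP-ATF response element, TGNTGCAAT, the type of site that ATF4 and CHOP use.
Hspa5: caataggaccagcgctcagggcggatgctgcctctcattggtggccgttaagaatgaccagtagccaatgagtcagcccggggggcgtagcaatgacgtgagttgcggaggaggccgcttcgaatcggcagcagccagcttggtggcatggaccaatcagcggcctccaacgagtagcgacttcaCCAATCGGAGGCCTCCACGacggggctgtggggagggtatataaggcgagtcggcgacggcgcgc
Trib3: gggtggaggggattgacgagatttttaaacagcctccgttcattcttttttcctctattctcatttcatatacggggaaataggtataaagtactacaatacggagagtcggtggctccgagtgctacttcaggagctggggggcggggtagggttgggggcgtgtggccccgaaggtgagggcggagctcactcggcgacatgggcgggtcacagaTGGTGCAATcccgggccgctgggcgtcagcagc

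Both strands were searched for these motifs, for the ER stress response element II (ATTGG and CCACG with 1 base between) and for the unfolded protein response element TGACGTGG, and the motifs were chosen with these promoters in view. No other match was found in the promoters of the 8 genes. Of 32851 promoters of this length in the table, 0.113% hold the ER stress response element, 0.0304% its type II, 0.581% the C/EBP-ATF element and 0.563% the unfolded protein response element. Among 10 ER chaperones and folding enzymes, 8 had a promoter in the table and 5 of these held the ER stress response element. Of 3 other ER stress genes searched, Dnajc3 held it, Dnajb9 had no match and Herpud1 held only the type II element. The ER stress response elements, without type II, are printed below, 5′ to 3′ on their own strand, with the fixed bases in capitals. A match is only a description of the letters.
Hspa5 (chr2:34772025-34772043, plus strand): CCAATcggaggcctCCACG
Hsp90b1, farther from the start (chr10:86705638-86705656, minus strand): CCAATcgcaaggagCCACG
Hsp90b1, nearer to the start (chr10:86705533-86705551, plus strand): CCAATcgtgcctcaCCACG
Calr (chr8:84847075-84847093, plus strand): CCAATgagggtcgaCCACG
Canx (chr11:50325800-50325818, minus strand): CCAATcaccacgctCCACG
Pdia6 (chr12:17266491-17266509, plus strand): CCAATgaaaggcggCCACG
Creld2 (chr15:88819520-88819538, minus strand): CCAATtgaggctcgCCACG
Dnajc3 (chr14:118937827-118937845, plus strand): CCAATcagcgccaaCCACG

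Eif2ak3 encodes PERK, the ER membrane kinase that senses unfolded protein and phosphorylates the translation factor eIF2alpha. It lies on chromosome 6 (70844515 to 70905245, plus strand, GRCm38). Eif2ak3 was at 2368, 2281, 2199 and 2180 scaled reads in deletion replicates 1 to 4, against 2346, 2120, 1971 and 2328 in control replicates 1 to 4. The groups overlapped nearly throughout, and only deletion replicate 1 was above every control. The mean was 2257 ± 85.9 in deletion and 2191 ± 179 in control libraries (SD, n = 4 each), with a log2 fold change of 0.05 ± 0.08 (SE). The 95% confidence interval ran from 0.918-fold to 1.16-fold. When control replicate 3, the lowest control, was left out, the value was -0.0041, and without deletion replicate 3 it was 0.06.

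Atf4 encodes the transcription factor whose translation rises when eIF2alpha is phosphorylated (chromosome 15, 80255184 to 80257541, plus strand). Atf4 was at 10009, 9376, 8955 and 9546 scaled reads in deletion replicates 1 to 4, and at 9878, 7685, 8185 and 8508 in control replicates 1 to 4. Control replicate 1 lay among the deletion libraries, while the other 3 controls lay below all of them. On the log2 scale the difference of Atf4 was 0.15 ± 0.09 (SE), not past the threshold by limma (adjusted p = 0.869), with an interval from 0.975-fold to 1.26-fold. It was 0.18 without deletion replicate 3.

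Atf5, the factor whose translation PERK favours in the receptor feedback, lies on chromosome 7 (44812256 to 44816658, minus strand). Atf5 was at 34007, 33253, 27896 and 31564 scaled reads in deletion replicates 1 to 4. In control replicates 1 to 4 it was at 31589, 27402, 27397 and 30276. Deletion replicates 1 and 2 were above every control, and deletion replicate 3 was close to the lowest controls. Atf5 had a log2 fold change of 0.12 ± 0.09 (SE), with an interval from 0.9504-fold to 1.24-fold. Leaving out deletion replicate 3 gave 0.18. Atf5 overlaps Nup62, on the opposite strand, which averaged 1113 scaled reads. The library kit keeps strand, but whether counting used it is not given in the sources used here.

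Ddit3 encodes CHOP, the stress factor induced by ATF4, and lies on chromosome 10 (127290774 to 127296288, plus strand), 103 Mb beyond the Taar cluster. Ddit3 was at 1312, 1168, 973 and 1618 scaled reads in deletion replicates 1 to 4, against 1034, 1430, 963 and 1278 in control replicates 1 to 4. Each group spread widely and the groups were intermixed. Ddit3 had a log2 fold change of 0.10 ± 0.16 (SE), with an interval from 0.834-fold to 1.38-fold. Its size rested on single libraries. Leaving out deletion replicate 3 gave 0.22 and leaving out deletion replicate 4 gave -0.02. Among controls, the value was 0.20 when replicate 2 was left out, 0.05 when replicate 1 was and 0.01 when replicate 3 was. Ddit3 overlaps Mars, a gene on the opposite strand that averaged 3071 scaled reads, with the same limit on strand.

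Ddit4 and Trib3 are targets of the PERK branch. Ddit4 encodes an inhibitor of the growth kinase mTORC1 and lies on chromosome 10 (59949669 to 59951834, minus strand), 35.8 Mb beyond the Taar cluster. Ddit4 was at 1490, 1584, 1350 and 1636 scaled reads in deletion replicates 1 to 4, and at 1618, 1499, 1190 and 1819 in control replicates 1 to 4. The deletion values all lay inside the range of the controls. Ddit4 had a log2 fold change of -0.0024 ± 0.12 (SE), with an interval from 0.831-fold to 1.20-fold. Its sign turned with the library left out: leaving out control replicate 3 gave -0.12, control replicate 4 gave 0.09 and deletion replicate 3 gave 0.05.

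Trib3 encodes a pseudokinase that is induced by ATF4 and CHOP and in turn restrains them (chromosome 2, 152337422 to 152344032, minus strand). Trib3 was at 1765, 1194, 1374 and 1571 scaled reads in deletion replicates 1 to 4, against 1746, 2027, 1015 and 1792 in control replicates 1 to 4. Control replicate 3 had the lowest and control replicate 2 the highest of the 8 values. Trib3 had a log2 fold change of -0.13 ± 0.21 (SE), with the widest interval of the 8, from 0.664-fold to 1.27-fold. Its size also rested on single libraries. Among controls, the value was -0.08 when replicate 1 was left out, -0.01 when replicate 2 was, -0.34 when replicate 3 was and -0.07 when replicate 4 was. Leaving out deletion replicate 1 gave -0.22, deletion replicate 2 gave -0.03 and deletion replicate 3 gave -0.10.

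Xbp1 encodes the factor that the IRE1 branch activates by splicing (chromosome 11, 5520659 to 5525893, plus strand). Xbp1 was at 7748, 7706, 9163 and 8250 scaled reads in deletion replicates 1 to 4, and at 8063, 6824, 6659 and 7352 in control replicates 1 to 4. Deletion replicates 3 and 4 were above every control, and control replicate 1 was above the other 2 deletion libraries. For Xbp1 the log2 difference was 0.19 ± 0.09 (SE), with an unadjusted p of 0.0509 and an adjusted p of 0.869 by limma, and with an interval from 0.999-fold to 1.30-fold. Without deletion replicate 3 it was 0.13. In the authors' deposited comparison, control over deletion, Xbp1 stands at -0.16, with a p of 0.0465 and an adjusted p of 0.923.

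Hspa5 encodes BiP, the main chaperone of the ER lumen, which binds and restrains the ER stress sensors. It lies on chromosome 2 (34771970 to 34777547, plus strand). Hspa5 was at 28416, 27874, 28548 and 29329 scaled reads in deletion replicates 1 to 4, against 25947, 21433, 21556 and 25798 in control replicates 1 to 4. Every deletion library was above every control, and control replicates 2 and 3 were well below the other controls. Hspa5 averaged 28541 ± 600.4 scaled reads in deletion and 23683 ± 2529 in control libraries (SD, n = 4 each), a ratio of means of 1.21. Its log2 fold change was 0.28 ± 0.09 (SE), with an interval from 1.06-fold to 1.38-fold, and leaving out deletion replicate 3 gave 0.27. Its unadjusted p of 0.0076 ranked 72 among 21974 genes, and it did not pass the adjustment (limma adjusted p = 0.869). In the authors' deposited table, whose fold change is control over deletion, Hspa5 stands at -0.24 with a p of 0.0022 and an adjusted p of 0.923. Groups without overlap and with deletion higher were seen in 0.983% of all tested genes and in 1.26% of those with a mean of at least 1000 scaled reads, and with deletion lower in 1.22% of all. Hspa5 was the only one of the 8 genes without overlap.

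**Figure D2:**
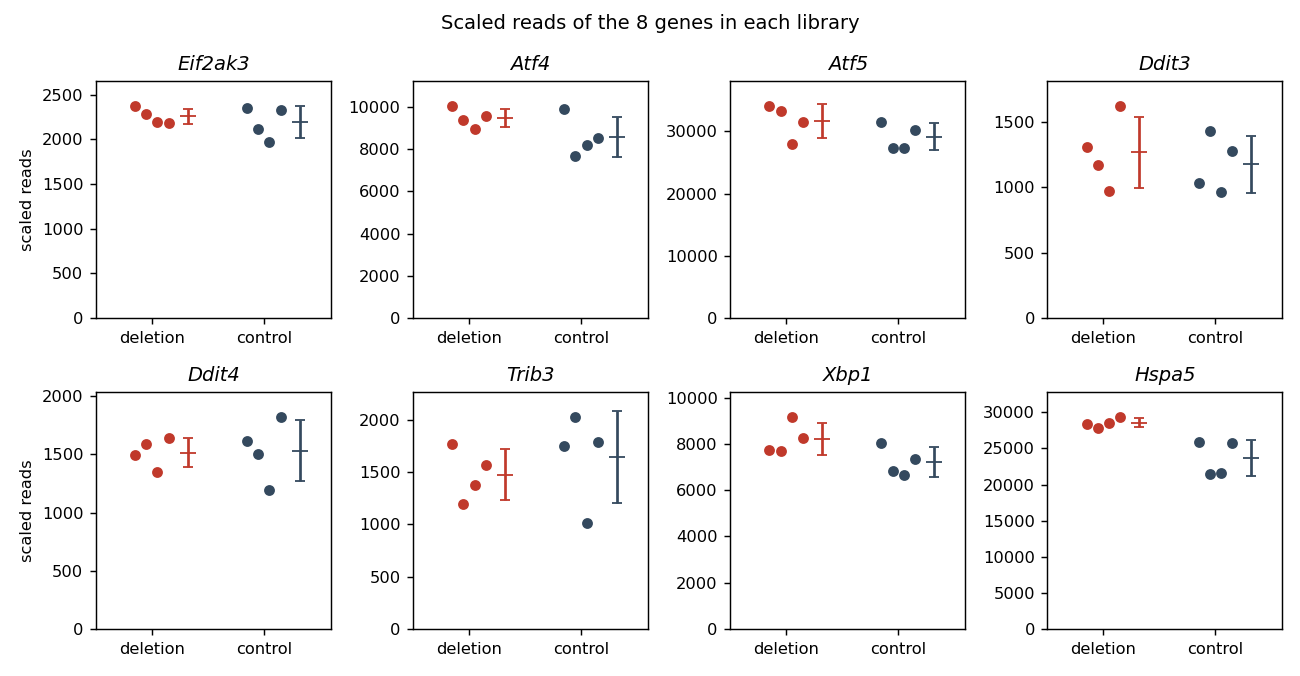
Scaled reads (y axis, from 0) of each of the 8 genes in the 4 deletion libraries (left, replicates 1 to 4 from left to right) and the 4 control libraries (right). The bar beside each group is the mean with its SD. In Hspa5 every deletion library, 27874 or more, is above every control, 25947 or less, and in the other 7 genes the groups overlap.

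The levels of the 8 genes kept much the same order in every library. Per kilobase of annotated exon, Atf5 was the highest in all 8 libraries, at 15896 ± 1366 scaled reads per kilobase in deletion and 14634 ± 1058 in control libraries (SD, n = 4 each). Hspa5 came next at 6749 ± 142 in deletion and 5600 ± 598 in control libraries, then Atf4 at 4017 ± 185 in deletion and 3632 ± 398 in control libraries. Xbp1 followed at 2530 ± 209 in deletion and 2224 ± 195 in control libraries. Eif2ak3 was the lowest in all 8 libraries, at 375 ± 14.3 in deletion and 364 ± 29.7 in control libraries. Between them, Ddit4, Trib3 and Ddit3 changed places from library to library, with levels from 478 to 1037 scaled reads per kilobase over both groups. Among tested genes, the level of Atf5 exceeded that of 99.7%, that of Hspa5 99.1% and that of Eif2ak3 74.7%.

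The genes also differed in how far they varied between libraries of a group. Over the 4 controls the coefficient of variation was 26.6% for Trib3, 18.4% for Ddit3, 17.2% for Ddit4, 11.0% for Atf4 and 10.7% for Hspa5. It was 7.23% for Atf5, 8.17% for Eif2ak3 and 8.75% for Xbp1. Tested genes with a mean of at least 1000 scaled reads had a median of 10.1% over controls. Over the 4 deletion libraries it was 21.4% for Ddit3, 16.7% for Trib3, 8.59% for Atf5, 8.30% for Ddit4 and 8.24% for Xbp1. It was 4.60% for Atf4, 3.81% for Eif2ak3 and 2.10% for Hspa5. The order thus differed between the groups, with Ddit4 below Atf5 in deletion and above it in control libraries. These differences in spread were not tested.

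Across the 8 libraries, 27 of the 28 pairs of genes had a positive Pearson's r, and none passed Benjamini-Hochberg adjustment over the 28 pairs (exact permutation test over pairings, two-sided). The positive signs rested in part on few libraries. For each pair, the 2 libraries farthest from the median of its first gene were left out together, which narrows that gene's range. With them left out, r was below 0 in 9 of 28 pairs. It was then -0.97 for Trib3 with Xbp1, -0.79 for Trib3 with Hspa5 and -0.65 for Atf5 with Xbp1. Over all 8 libraries these pairs had r = 0.05, 0.05 and 0.29. With each group centred on its own mean, they had 0.25, 0.37 and -0.08. The negative values thus rest on the few libraries kept and were not tested. The closest pair was Atf4 and Atf5, with r = 0.84 (exact permutation p = 0.0116, adjusted p = 0.123) and Spearman's rho = 0.88 (exact permutation p = 0.00724, adjusted p = 0.101). Without control replicates 2 and 3, the libraries farthest from the median of Atf4, r was 0.67, and with each group centred on its own mean it was 0.78. Xbp1 and Hspa5 had r = 0.84 (exact permutation p = 0.00722, adjusted p = 0.123) and rho = 0.88 (exact permutation p = 0.00724, adjusted p = 0.101). Leaving out deletion replicate 3 and control replicate 3 gave r = 0.86, and centring each group on its own mean gave r = 0.69. Atf4 and Hspa5 had r = 0.82 and rho = 0.69 (exact permutation p = 0.0132 and 0.0694, adjusted p = 0.123 and 0.385), and r was 0.29 without control replicates 2 and 3. Ddit3 and Xbp1 were the pair below 0, with r = -0.10 and rho = 0.10 (exact permutation p = 0.800 and 0.840, adjusted p = 0.933 and 0.871), and r was -0.91 without deletion replicate 4 and control replicate 3.

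**Figure D3:**
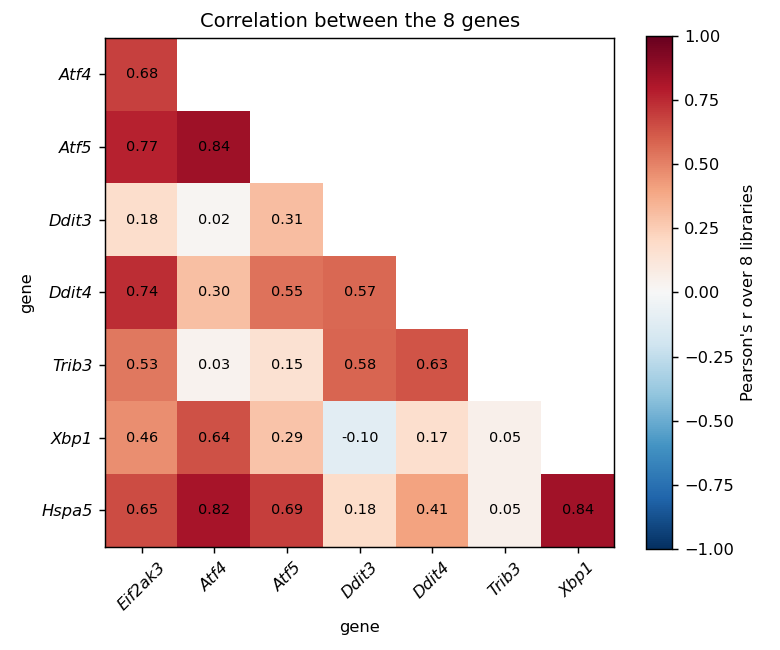
Pearson's r between each pair of the 8 genes, on log2(scaled reads + 1) over the 8 libraries (4 deletion, 4 control). Red is positive and blue negative. The highest values, 0.84, are those of Atf4 with Atf5 and of Xbp1 with Hspa5, and Ddit3 with Xbp1 is the one pair below 0.

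The genes whose pattern over the 8 libraries was most like each member were taken by Pearson's r among 14695 tested genes with a mean of at least 100 scaled reads. With so many genes and 8 libraries, high values are common, and they are given as a description. For Atf5 they were Pdpk1, Mon1a and Sertad3 (r = 0.99, 0.99 and 0.98). For Atf4 they were Gadd45g, Lamtor5 and Coa3 (r = 0.99 each), and for Eif2ak3 Nploc4, Rab17 and Psmd3 (r = 0.99, 0.98 and 0.98). For Hspa5 they were Zfp706, Uri1 and Mapkapk3 (r = 0.97 each), and for Xbp1 Dcaf4, Ppt1 and Etfa (r = 0.96, 0.96 and 0.95). For Ddit4 they were Gsc, Smad4 and Rpusd1 (r = 0.98, 0.95 and 0.95), for Trib3 Inpp5a, Pstk and Ehmt1 (r = 0.96, 0.93 and 0.90), and for Ddit3 Arrdc3, AC159266.3 and Hist1h1e (r = 0.93, 0.91 and 0.90).

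The partners of Atf5 in the receptor feedback had log2 fold changes from -0.01 to 0.12. Adcy3, the cyclase of odour transduction, was at 34758, 34815, 31077 and 29708 scaled reads in deletion replicates 1 to 4. In control replicates 1 to 4 it was at 33096, 32686, 31923 and 33620. The controls lay inside the range of the deletion libraries, and the log2 fold change was -0.01 ± 0.08 (SE). Kdm1a, the Lsd1 demethylase, had a log2 fold change of 0.09 ± 0.10. Rtp1 and Rtp2, which carry receptors to the cell surface, were at 0.12 ± 0.08 and 0.12 ± 0.11. Of these 4 genes, 0 were called by limma, edgeR or DESeq2, and 0 passed 0.05 unadjusted.

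Beyond the 8 genes, 76 others of the pathway in 7 lists were all tested, and 0 were called in either direction (limma; 0 by edgeR and 0 by DESeq2). At an unadjusted p under 0.05 there were 5, all higher in deletion, or 6.58% of the 76, beside 1.58% of all tested genes and 2.34% of those with a mean of at least 1000 scaled reads. Of the 76, 67 (88.2%) had a log2 fold change above 0, and of the 60 with a mean of at least 1000 scaled reads 93.3% did, beside 77.2% of all tested genes that abundant. Groups did not overlap in 5 genes, again all higher in deletion: Dnajc3, Dnajb9, Calr, Pdia4 and Pdia6. They were 6.58% of the 76, beside 0.983% of all tested genes and 1.26% of those with a mean of at least 1000 scaled reads. The margins between the lowest deletion and the highest control library were narrow. In scaled reads they were 4891 against 4866 for Pdia4, 23616 against 23399 for Calr and 7581 against 7491 for Pdia6. For Dnajb9 they were 3696 against 3660 and for Dnajc3 8339 against 8108.

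The ER chaperones and folding enzymes had the highest median of the 7 lists, 0.18, with 10 of 10 genes above 0, 0 called and 3 at an unadjusted p under 0.05 (Pdia6, Calr and Manf). Pdia6, a disulfide isomerase, was at 8103, 7774, 8189 and 7581 scaled reads in deletion replicates 1 to 4, and at 7491, 5899, 5800 and 7397 in control replicates 1 to 4. The controls split as for Hspa5, with replicates 2 and 3 low. Calr, the calcium-binding lectin chaperone, averaged 24095 ± 407 scaled reads in deletion and 20824 ± 2591 in control libraries, a log2 fold change of 0.22 ± 0.09 (SE). P4hb, the list's highest by mean scaled reads, was at 0.21 ± 0.10. Among the genes of this list with an ER stress response element in the searched window, the log2 fold change was 0.13 for Hsp90b1, 0.16 for Canx, 0.22 for Calr, 0.22 for Creld2 and 0.26 for Pdia6. Among the 3 with a promoter and no match, it was 0.12 for Pdia3, 0.17 for Pdia4 and 0.21 for P4hb, so the ranges overlapped.

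The XBP1 targets had a median of 0.14, with 10 of 10 genes above 0, 0 called and 1 at an unadjusted p under 0.05. That was Dnajb9, a BiP co-chaperone, at 4315, 3866, 3696 and 4055 scaled reads in deletion replicates 1 to 4, against 3481, 3306, 3203 and 3660 in control replicates 1 to 4. Its groups did not overlap, by a narrow margin. Sec61b, a subunit of the ER translocation channel, was at a log2 fold change of 0.26 ± 0.12 (SE), and Ssr3, a translocon-associated protein and the most abundant of the list, at 0.14 ± 0.09.

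The genes that set eIF2alpha phosphorylation had a median of 0.11, with 7 of 8 above 0, 0 called and 1 at an unadjusted p under 0.05. That gene was Dnajc3, an ER co-chaperone first known as an inhibitor of eIF2alpha kinases, at 0.23 ± 0.08. Eif2s1, which encodes eIF2alpha itself, was at 0.12 ± 0.08, and Ppp1r15b, a subunit of the phosphatase that reverses its phosphorylation, at 0.11 ± 0.09. The ATF4 and CHOP targets also had a median of 0.11, with 22 of 25 above 0, 0 called and 0 at an unadjusted p under 0.05. Atf3, a stress factor of the same family, was at 0.37 ± 0.19, Psph, an enzyme of serine synthesis, at 0.25 ± 0.12, and Cebpg at 0.12 ± 0.08.

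The genes of ER-associated degradation, which removes misfolded proteins, had a median of 0.12, with 9 of 10 above 0, 0 called and 0 at an unadjusted p under 0.05. Herpud1 was at 0.24 ± 0.12, Edem2 at 0.14 ± 0.08 and Vcp at 0.09 ± 0.09. The other sensors and the proteases that release them had a median of 0.06, with 6 of 9 above 0 and the same counts of 0. Creb3 was at 0.20 ± 0.10, Atf6 at 0.09 ± 0.08 and Mbtps1, the protease that cuts ATF6, at 0.06 ± 0.07. The medians of these lists moved when 1 library was left out. Leaving out control replicate 2 took the feedback partners to 0.03, the XBP1 targets to 0.09, the degradation genes to 0.08 and the chaperones to 0.13. Leaving out control replicate 3 took the sensors and proteases to 0.01 and the ATF4 and CHOP targets to 0.06, and leaving out deletion replicate 1 took the eIF2alpha genes to 0.06. The highest values came without control replicate 1, at 0.23 for the chaperones and 0.16 for the ATF4 and CHOP targets, except for the sensors and proteases, at 0.09 without deletion replicate 4. Immediate early genes had a median of 0.33 (5 of 5 above 0, Junb 0.34 ± 0.15, Ier2 0.18 ± 0.15) and cytosolic heat shock genes 0.21 (4 of 4 above 0, Hspa1a 0.28 ± 0.24, Dnajb1 0.20 ± 0.12, Hsph1 0.12 ± 0.10). None of these 9 genes was called, and 0 had an unadjusted p under 0.05. The immediate early median was 0.18 without deletion replicate 1 and 0.53 without control replicate 3. That of the heat shock genes was 0.12 without deletion replicate 4, 0.11 without control replicate 2 and 0.33 without control replicate 4.

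**Figure D4:**
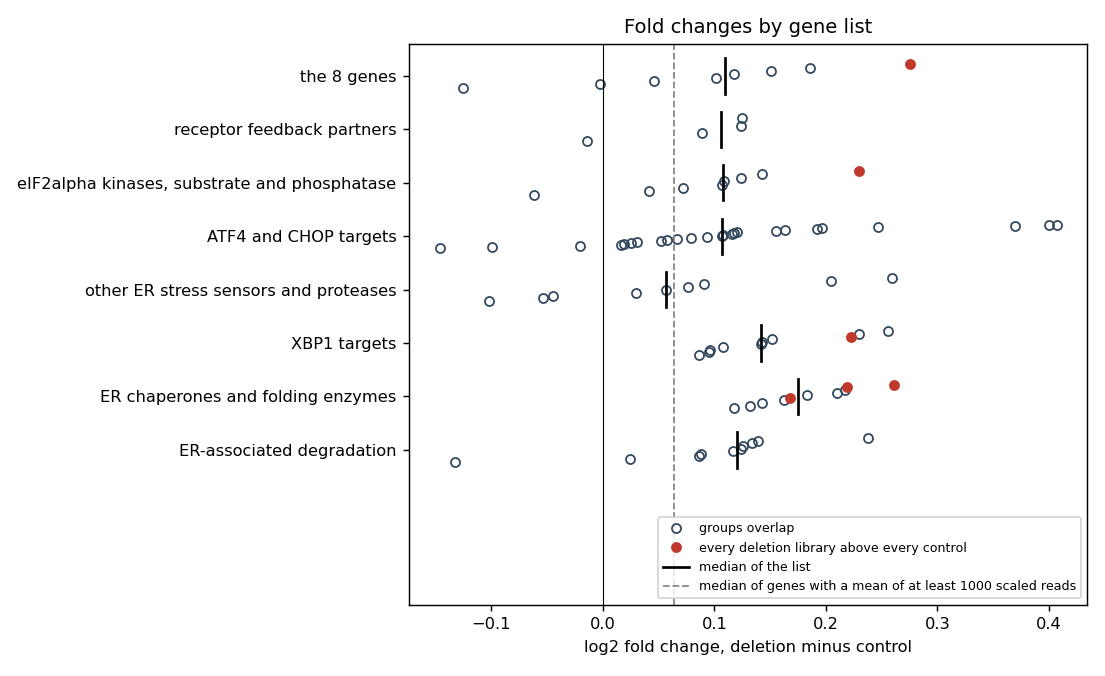
Log2 fold change, deletion minus control (x axis), of the 8 genes and of 76 other pathway genes by list. Filled points are genes in which every deletion library was above every control (Hspa5, Dnajc3, Dnajb9, Calr, Pdia4 and Pdia6), open points are the rest, and black bars are list medians, from 0.06 to 0.18. The dashed line is the median of abundant tested genes, 0.06.

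Marker sums of other cell types differed between the same libraries as Hspa5. In bulk RNA, fewer cells of a type and less RNA per cell cannot be told apart. The 7 respiratory and gland markers summed to 8472 to 9144 CPM in deletion and 5470 to 8488 CPM in control libraries, with control replicates 2 and 3 the lowest at 5470 and 6343 CPM. None of the 7 was at 0 in any library, 5 of 7 were above 0 in log2 fold change, and 2 had an unadjusted p under 0.05 (Bpifa1 and Reg3g). Bpifa1, a secreted airway protein, alone made up 76.7% to 82.5% of the sum in deletion and 68.6% to 81.6% in control libraries. Muc5b and Dmbt1 were below 0, at -0.08 and -0.34, and Muc5b was highest of all 8 libraries in control replicate 2, where the sum was lowest. Over the 8 libraries, this sum and Hspa5 had r = 0.92 (exact permutation p = 0.00337, adjusted p = 0.108 over 32 relations of genes with marker sums) and rho = 0.69 (exact permutation p = 0.0694, adjusted p = 0.456). Without control replicates 2 and 3, r was 0.62, and with each group centred on its own mean it was 0.86. Of the 32 relations, 19 were positive and 0 passed adjustment. Hspa5 had r = 0.61 with the mature neuron sum, 0.57 with the immature neuron sum and -0.15 with the plasma cell sum. Its r with the respiratory and gland sum was the highest of the 32. With the log2 of this sum as a covariate, the log2 fold change of Hspa5 was 0.12 (limma, unadjusted p = 0.161, adjusted p = 1.00), that of Xbp1 was 0.09 and that of Eif2ak3 was -0.05. With it the median of the chaperone list was 0.005 and the medians of the XBP1 targets, the ATF4 and CHOP targets, the degradation genes and the feedback partners were below 0. With Bpifa1 left out of the sum, the covariate gave 0.23 for Hspa5 (limma, unadjusted p = 0.0351, adjusted p = 0.961), 0.13 for Xbp1 and 0.0048 for Eif2ak3, and a chaperone median of 0.14. Trib3 was at -0.32 with it. The larger drop of Hspa5 was thus seen with Bpifa1 in the sum. In Bpifa1 every deletion library, 271232 scaled reads or more, was above every control, 260704 or less. A covariate that follows the groups this closely takes up part of the group difference itself, so the drop cannot be assigned to either. Both covariates were added after the values were seen.

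The 5 sustentacular cell markers summed to 12505 to 14729 CPM in deletion and 11098 to 12022 CPM in control libraries, without overlap. Cyp2a5 was the most abundant of them, at a mean of 337657 scaled reads in deletion and 284008 in control libraries. It was at 408042 in deletion replicate 3, and was the only one of these markers whose groups did not overlap. The part of these markers in the results was not tested. For mature neuron markers the median difference was 0.09 on the log2 scale (7 of 7 above 0), or -0.0081 without control replicate 2, and with their log2 sum as a covariate Hspa5 was at 0.23 and Trib3 at 0.01. Immature neuron markers, the stage at which the feedback acts, summed to 532 to 642 CPM in deletion and 556 to 627 CPM in control libraries. Plasma cells depend on Xbp1. Their 7 markers summed to 7.51 to 15.1 CPM in deletion and 9.82 to 11.8 CPM in control libraries. The highest sum was in deletion replicate 3, which also had the highest Xbp1. Of 6 plasma cell markers tested, 5 were below 0 in log2 fold change, with a median of -0.22. The most abundant was Derl3, which shares a family with genes of the degradation list. Derl3 averaged 246 scaled reads in deletion and 238 in control libraries, and was at 409 in deletion replicate 3. The sum therefore does not stand for plasma cells alone, apart from the pathway. Over the 8 libraries, the plasma cell sum and Xbp1 had r = 0.35 and rho = 0.05 (exact permutation p = 0.391 and 0.935, adjusted p = 0.658 and 0.977). Without deletion replicates 1 and 3, r was -0.49, and with each group centred on its own mean it was 0.67. With the log2 of the plasma cell sum as a covariate, also added later, Xbp1 was at 0.22 and Hspa5 at 0.28. Macrophage markers had a median of 0.24, with 5 of 5 above 0, 2 at an unadjusted p under 0.05 (C1qa and Adgre1) and no overlap between groups in Adgre1. They summed to 53.0 to 71.2 CPM in deletion and 46.2 to 59.1 CPM in control libraries, and their part in the results was not tested. Neutrophil markers summed to 10.9 to 20.7 CPM in deletion and 15.7 to 22.9 CPM in control libraries, and erythroid markers to 24.9 to 35.6 CPM in deletion and 20.04 to 58.6 CPM in control libraries. Bone and cartilage markers summed to 80.1 to 102 CPM in deletion and 84.3 to 134 CPM in control libraries.

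**Figure D5:**
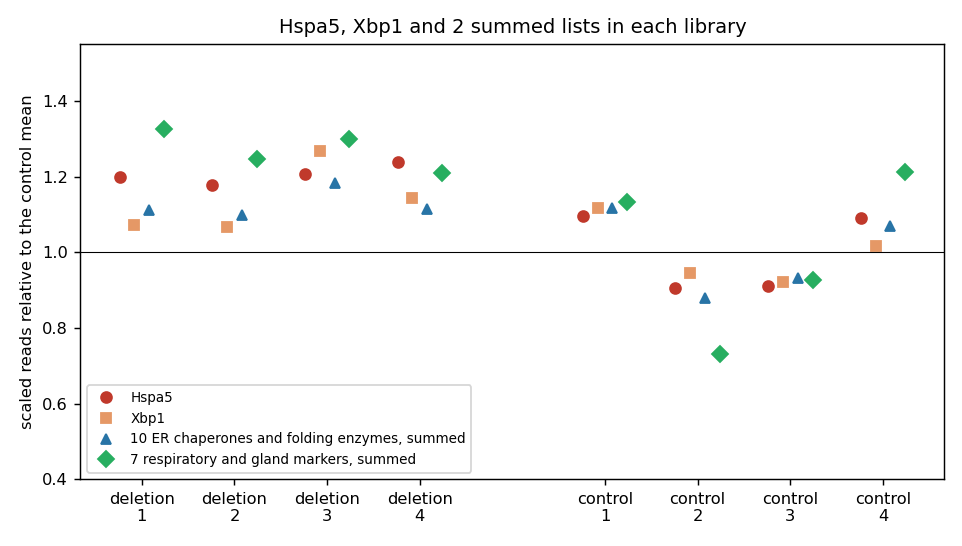
Scaled reads of Hspa5, Xbp1, the 10 ER chaperones and folding enzymes summed and the 7 respiratory and gland markers summed, each relative to its mean over the 4 controls (y axis, which does not start at 0), in each deletion (left) and control (right) library. All 4 are below 1 in control replicates 2 and 3 and above 1 in the other 6 libraries. Hspa5 runs from 1.18 to 1.24 in deletion and from 0.905 to 1.10 in control libraries.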

How the data were processed

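Total RNA was depleted of ribosomal RNA and sequenced with a stranded kit, per the labels' protocols. STAR 2.6.0, DESeq2 and GRCm38.p6 are named in the submitters' processing notes. Neither the counting program nor the gene annotation is named in the sources used here. The authors' deposited per-sample values are read counts scaled by size factors (a signal, not counts): 100% of non-zero values were whole multiples of the smallest in their column (tolerance 0.001), which gave 31655524 to 50748777 reads per library. Per the file headers, the authors also deposited a mean signal, a log2 fold change, its error, a test score and p-values. Deletion columns carry another abbreviation than the titles and were matched by number.

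Genes were kept with filterByExpr of edgeR 4.0.16 (minimum count 10), 21974 in all, and tested by limma 3.58.1 (R 4.3.3) after log2 transformation with a pseudocount of 1, with trend and robust moderation, Benjamini-Hochberg adjustment and a threshold of 0.05. The test was checked on simulated data. The edgeR quasi-likelihood test on recovered reads called 16 genes, as many as limma. DESeq2 1.42.0, other scalings, filters and pseudocounts, covariates, a replicate block and leaving out each library were alternatives. Exon lengths and coordinates are from GENCODE M21 (GRCm38).

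The members and gene lists were chosen with earlier results of these data known. Genes named are the 8 members, the feedback partners, of each other pathway list the 2 with the smallest p and the 1 with the highest mean, and the 3 most similar patterns per member. Manf, Pdia4, Hsp90b1, Canx, Creld2, Pdia3, Bpifa1, Reg3g, Muc5b, Dmbt1, C1qa, Adgre1, Derl3, Cyp2a5, Xist and Ddx3y were named after their values were seen.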

Additional observations from a re-analysis of the deposited data

Results flagged for a closer look

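Single libraries lay far from the rest of their group, by the gap to the nearest other library as a share of the group's range (Dixon's criterion at 95%), in 11 of 108 groups of 4 values tested, and chance gives about 1 in 20. None of these was a value of the 8 genes. Rtp1 was lowest in control replicate 2, at 22395 scaled reads against 26650 to 27073 in the other controls. Ppp1r15b was highest in deletion replicate 1, at 15469 scaled reads against 13785 to 14017 in the other deletion libraries. Atf3 was also highest in deletion replicate 1, at 279 against 165 to 181 scaled reads. Hsph1 was highest in deletion replicate 4, at 3738 against 2877 to 2991 scaled reads, and Hspa1a in control replicate 4, at 136 against 69.3 to 78.6 scaled reads.

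Among summed lists, deletion replicate 3 was lowest in globose basal cell and precursor markers (201 CPM against 302 to 317 CPM in the other deletion libraries). It was highest in sustentacular markers (14729 against 12505 to 12880 CPM) and in plasma cell markers (15.1 against 7.51 to 8.58 CPM). Deletion replicate 4 was lowest in the other ER stress sensors and proteases (524 against 566 to 572 CPM) and highest in cytosolic heat shock genes (156 against 127 to 132 CPM). Control replicate 2 was lowest in mature neuron markers (9222 against 10659 to 10952 CPM).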

How the results depend on the processing

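Under the 22 alternatives run, 0 of the 8 genes were called, and 0 to 3 passed 0.05 unadjusted. The count of all genes called, 16 as reported, was 10 when genes had to average 50 scaled reads and 9 with the respiratory and gland covariate, which was added after the data were seen; the cause was not tested. It was 13 to 31 when 1 library was left out, the highest without deletion replicate 4, and DESeq2 called 23. Among the 8 genes, signs turned in Eif2ak3, Ddit3, Ddit4 and Trib3, all short of the threshold throughout. Eif2ak3 was at -0.0505 with the respiratory and gland covariate and ran from -0.00410 to 0.0797 when 1 library was left out. Leaving out 1 library moved Ddit3 between -0.0240 and 0.220 and Ddit4 between -0.118 and 0.0860. Trib3 was at 0.0116 with the mature neuron covariate. The causes of these turns were not tested. Hspa5 ran from 0.23 to 0.32 when 1 library was left out, and was 0.25 with edgeR, with DESeq2 and with library totals. It was 0.12 with the respiratory and gland covariate (unadjusted p = 0.161) and 0.23 with that covariate less Bpifa1. Its adjusted p over all alternatives ran from 0.446 to 1.00. Another scaling shifted the median of all genes by at most 0.03.

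Samples were also correlated on log2 values after each gene's mean within its group was subtracted. On these differences, same-numbered samples of the groups had r from -0.17 to 0.33 over 4 pairs. Of the deletion libraries, 2 of 4 correlated best with their own number. Whether the replicate numbers mark a pairing, such as a shared litter, cannot be told from these values. With the replicate block, 14 genes and 0 of the 8 were called. The number of libraries, 4 a group, limits the precision, and the 95% intervals of the 8 genes have bounds from 0.664-fold to 1.38-fold.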
